A study of Mus musculus with 12 samples.

Results

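The IFIT family consists of the 6 genes Ifit1, Ifit2, Ifit3, Ifit3b, Ifit1bl1 and Ifit1bl2, whose levels were followed in RNA-seq of mouse macrophages with and without the mitochondrial enzyme ACAT1. The members were chosen by gene symbol, with earlier results of these data known, so shares of members set beside shares of all genes carry no test. All 6 were found among the 17544 genes listed for unstimulated cells and the 17874 listed after lipopolysaccharide (LPS), with 16699 genes in both tables. J774A.1 is an established mouse macrophage line. The 12 libraries form 4 groups of 3: WT cells, which carried the Cas9 vector with no guide, and ACAT1 KO cells, edited with a guide to exon 4 of Acat1, each either untreated or given LPS at 100 ng/ml for 2 hours. Each genotype is represented by 3 lines grown from small numbers of sorted cells, so differences between genotypes also include differences between lines. Apart from the editing and LPS, no agent was given, and all cells carried the Cas9 and GFP vector.

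IFIT proteins are built of tetratricopeptide repeats and are among the most strongly interferon-induced proteins of the cell. IFIT1 binds RNA whose cap lacks ribose methylation, as in many viral RNAs, and keeps it from being translated. IFIT2 and IFIT3 assemble with IFIT1 or with each other, and IFIT2 restricts several RNA viruses in mice. In macrophages LPS acts through TLR4 and IRF3 to induce Ifnb1, and interferon then acts through ISGF3, a complex that contains STAT2 and IRF9. IRF3 and ISGF3 both bind the interferon-stimulated response element in the promoters of such genes.

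The 6 genes lie side by side on chromosome 19 of GRCm38, between 34550694 and 34650009, a stretch of 99.3 kb in the GENCODE annotation. Ifit2 (ENSMUSG00000045932) spans 34550694 to 34576419, Ifit3 (ENSMUSG00000074896) 34583531 to 34588731, Ifit3b (ENSMUSG00000062488) 34607970 to 34613401 and Ifit1 (ENSMUSG00000034459) 34640871 to 34650009, all on the plus strand. Ifit1bl1 (ENSMUSG00000079339, 34592891 to 34601956) and Ifit1bl2 (ENSMUSG00000067297, 34617049 to 34640743) lie on the minus strand. No exon of a member overlapped an exon of a gene on the other strand. The annotated starts of Ifit1bl2 and Ifit1 face away from each other across 127 bases, so this interval lies upstream of both genes.

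The stretches upstream of 5 members are shown because each holds the letters of the response element. The letters searched were GAAANNGAAA and, on the other strand, TTTCNNTTTC, in windows from 250 bases before to 50 bases after each RefSeq start on GRCm38.p6, and matches are in capitals. The sequence between the starts of Ifit1bl2 and Ifit1 is on the plus strand, the others on the strand of their gene, and none of them holds an annotated exon.
Ifit1bl2 and Ifit1, chr19:34640744-34640870: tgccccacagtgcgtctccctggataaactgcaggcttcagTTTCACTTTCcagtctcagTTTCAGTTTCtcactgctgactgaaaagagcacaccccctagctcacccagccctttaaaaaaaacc
Ifit3, chr19:34583359-34583528: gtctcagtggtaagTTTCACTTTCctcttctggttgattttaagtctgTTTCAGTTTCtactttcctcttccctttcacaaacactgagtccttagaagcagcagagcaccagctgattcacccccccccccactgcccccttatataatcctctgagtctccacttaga
Ifit3b, chr19:34607755-34607956: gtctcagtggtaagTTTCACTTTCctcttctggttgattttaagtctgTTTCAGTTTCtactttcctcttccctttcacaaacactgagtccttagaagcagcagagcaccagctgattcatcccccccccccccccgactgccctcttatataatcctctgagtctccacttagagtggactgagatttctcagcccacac
Ifit1bl1, chr19:34601969-34602118: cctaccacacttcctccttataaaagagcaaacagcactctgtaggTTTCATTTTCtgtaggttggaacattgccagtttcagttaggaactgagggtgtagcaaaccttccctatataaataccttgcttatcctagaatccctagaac

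The interval shared by Ifit1bl2 and Ifit1 holds 2 matches, and the windows of Ifit3 and Ifit3b hold 2 each. Ifit1bl1 has windows that start at 34601919, shown in part above, and at 34599378, and each holds 1 match. A further window of Ifit1bl2, which starts at 34629762, holds 0. The letters were not in either of the windows of Ifit2, which start at 34550444 and 34550838. Matches are thus in a window of 5 of the 6 members, against 1079 of 27025 genes with a window (3.99%) and 0 of the 11 protein-coding genes within 500 kb of the cluster. The 5 are not independent, since Ifit1 and Ifit1bl2 are counted on the same sites and the upstream stretches of Ifit3 and Ifit3b are much alike. Of the 7 other interferon-stimulated genes with a window among those listed further on, 2 had a match, Cxcl10 and Rsad2. A match is a description of letters and no evidence of binding.

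Ifit3 and Ifit3b are near copies. Their coding sequences, 1209 bases each, were identical at 99.1% of positions, and the upstream stretches shown above at 83.7% of 202 aligned columns. Of the distinct runs of 100 bases in the transcripts of Ifit3, 31.7% also occur in Ifit3b, and 27.4% of those of Ifit3b occur in Ifit3. Reads from these runs could be counted for either gene, so the split of counts between Ifit3 and Ifit3b is uncertain. Ifit1bl1 and Ifit1bl2 were 88.0% identical over their coding sequences, but only 0.51% of the runs of Ifit1bl1 and 2.91% of those of Ifit1bl2 were shared with another gene. Ifit1 shared 3.29% of its runs, all with Ifit1bl2, and Ifit2 shared 0 of 3925.

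The libraries held from 56948593 to 167280149 counts assigned to genes. Acat1 was lower in ACAT1 KO than in WT cells in both states, by log2 fold changes of -1.87 unstimulated (adjusted p = 0.00876) and -2.08 after LPS (adjusted p = 0.000787, edgeR, quasi-likelihood, Benjamini-Hochberg). All 8 macrophage markers examined, among them Csf1r, Adgre1 and Cd68, were listed in both tables, and their summed level lay between 9555 and 14011 CPM in every library. Adgre1 was lower in ACAT1 KO cells at rest (log2 fold change -0.78) and Itgam and Spi1 were higher after LPS, 1 and 2 of the 8, and their part in the results was not tested. None of the 3 T cell or 2 epithelial markers was listed, nor were Ms4a1, Ly6g, Flt3 and Siglech. Cd79a (B cell), S100a8 (neutrophil) and Xcr1 (dendritic cell) were listed in both states, and Mpo (neutrophil) after LPS. The highest library was at 0.836 CPM for Cd79a, 0.345 CPM for Xcr1 and 5.73 CPM for S100a8. With LPS Cd79a and Xcr1 passed higher in both genotypes, and S100a8 passed lower in ACAT1 KO cells. Of the macrophage markers, Adgre1, Mpeg1, Ptprc and Spi1 passed higher with LPS and Lyz2 lower, in both genotypes. The LPS response of Adgre1 was larger in ACAT1 KO cells by 0.83 on the log2 scale, which also passed. The 2 fibroblast markers, of which Pdgfra was the one listed in both states, summed to 4.97 to 5.87 CPM in WT and 10.3 to 11.9 CPM in ACAT1 KO cells after LPS. Pdgfra passed higher with LPS, by log2 fold changes of 2.1 in WT and 3.3 in ACAT1 KO cells. It also passed higher in ACAT1 KO cells after LPS (0.99) and in the difference between the LPS responses (1.22). The tables list only genes with at least 4 counts in at least 5 of 6 libraries. The unstimulated WT replicates 1 and 2 and KO replicate 2 stood apart by a larger share of counts on noncoding genes that lie within exons of the other strand, 0.0201% to 0.0308% against at most 0.0083% in the other 9. No member has such exons. The fit without these 3 libraries leaves 1 unstimulated WT library, which is assumed to vary like the other groups, so it is read for values and not for calls.

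All 6 members were expressed without stimulation, at levels that differed widely between them. Ifit2 had the highest level per length in WT cells, 7.28 ± 0.561 CPM per kb of exon (SD, n = 3), where CPM scales a count to the size of its library. Ifit1 followed at 2.89 ± 0.228 and Ifit3 at 1.67 ± 0.361 CPM per kb. The remaining members stood far lower, Ifit3b at 0.247 ± 0.0653, Ifit1bl1 at 0.204 ± 0.0671 and Ifit1bl2 at 0.118 ± 0.0216 CPM per kb. Ifit3b and Ifit1bl1 are neighbours in this order that did not differ beyond their spread. Among 17521 genes with a length, Ifit2 ranked 5888th and Ifit1bl2 15477th. The lowest values rest on few reads, 12 to 34 counts per unstimulated library for Ifit1bl1, 13 to 66 for Ifit3b and 20 to 49 for Ifit1bl2.

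Every member was higher after LPS in both genotypes, and by far more than any genotype difference. Unstimulated and LPS libraries are in separate deposited tables, so the state cannot be told apart from the table or from any run that goes with it. In WT cells Ifit1 was at 7.05, 7.73 and 8.25 CPM in replicates 1 to 3 without stimulation and at 1031, 1723 and 1653 CPM after LPS. In ACAT1 KO cells it was at 4.77, 4.40 and 2.81 CPM without stimulation and at 1697, 1626 and 1329 CPM after LPS. The states did not overlap, and WT replicate 1 had the lowest level of all 6 libraries after LPS. The log2 fold change of Ifit1 was 7.89 (SE 0.275, adjusted p = 9.81e-10) in WT and 8.90 (SE 0.287, adjusted p = 4.32e-10) in ACAT1 KO cells.

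Ifit2, the most abundant member at rest, had the smallest fitted response in both genotypes. It was at 26.2, 30.4 and 29.2 CPM in unstimulated and 767, 1151 and 1268 CPM in LPS-treated WT cells, a log2 fold change of 5.53 (SE 0.223). In ACAT1 KO cells it was at 28.0, 34.3 and 24.7 CPM and, after LPS, at 1401.5, 1431 and 1042.5 CPM, a log2 fold change of 5.78 (SE 0.225). Among the others the log2 fold changes in WT and ACAT1 KO cells were 6.45 and 7.19 for Ifit3, 7.42 and 7.98 for Ifit3b, 5.78 and 6.08 for Ifit1bl1, and 7.03 and 7.67 for Ifit1bl2.

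All 6 members passed an adjusted p under 0.05 upward in each genotype, where 29.3% of the 16535 genes tested did in WT and 29.5% in ACAT1 KO cells. The largest adjusted p of any member was 3.17e-07, for Ifit1bl1 in WT cells. The median log2 fold change of the members was 6.74 in WT and 7.43 in ACAT1 KO cells, against -0.02 and -0.03 over all genes tested. Ranked by log2 fold change among 16535 genes, the members stood between 11th (Ifit1) and 36th (Ifit2) in WT and between 10th (Ifit1) and 42nd (Ifit2) in ACAT1 KO cells.

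**Figure D1:**
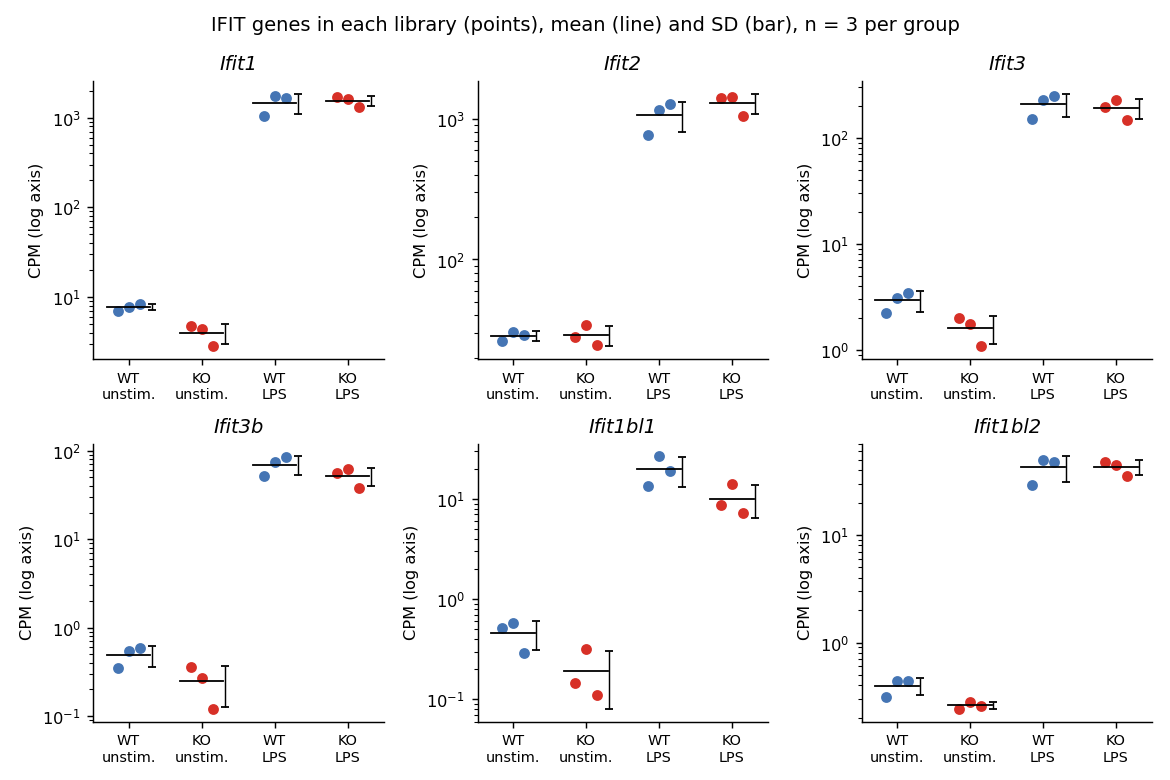
CPM (log axis) of each IFIT gene in every library, with WT in blue and ACAT1 KO in red. Lines are means and bars SD of 3 libraries. LPS-treated libraries lie above all unstimulated ones for every gene. Unstimulated WT and KO libraries do not overlap for Ifit1, Ifit3 and Ifit1bl2.

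LPS also changed which member led. After LPS Ifit1 had the highest level per length, 553 ± 143 CPM per kb in WT and 584 ± 73.5 in ACAT1 KO cells (SD, n = 3), where it ranked 65th and 63rd of 17849 genes. Ifit2 followed at 270 ± 66.7 and 329 ± 55.1 CPM per kb. Next came Ifit3 at 119 ± 29.7 and 109 ± 23.5, and Ifit3b at 34.9 ± 8.30 and 26.0 ± 6.17 CPM per kb. Ifit1bl2, at 12.6 ± 3.39 and 12.7 ± 1.98 CPM per kb, stood above Ifit1bl1, at 8.71 ± 2.92 and 4.45 ± 1.62, and in WT cells these neighbours differed by little more than their spread.

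The make-up of the family gives the same values within a library, as a share of the summed CPM per kb. Ifit1 made up 23.3 ± 0.922% of the pool in unstimulated WT cells and 55.3 ± 1.64% after LPS (SD, n = 3). In ACAT1 KO cells its share was 14.8 ± 2.23% at rest and 55.0 ± 1.95% after LPS. Ifit2 went the other way, from 58.7 ± 1.69% to 27.1 ± 1.16% in WT and from 73.4 ± 4.32% to 30.8 ± 0.705% in ACAT1 KO cells. Ifit3 kept a share of 13.4 ± 1.82% and 11.96 ± 0.457% in WT and 9.04 ± 1.77% and 10.2 ± 0.989% in ACAT1 KO cells. Shares within a library do not depend on how libraries are scaled to each other. The family as a whole took 40.5 ± 3.42 CPM in WT and 35.3 ± 6.13 CPM in ACAT1 KO cells at rest, and 2871 ± 719 and 3137 ± 466 CPM after LPS.

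**Figure D2:**
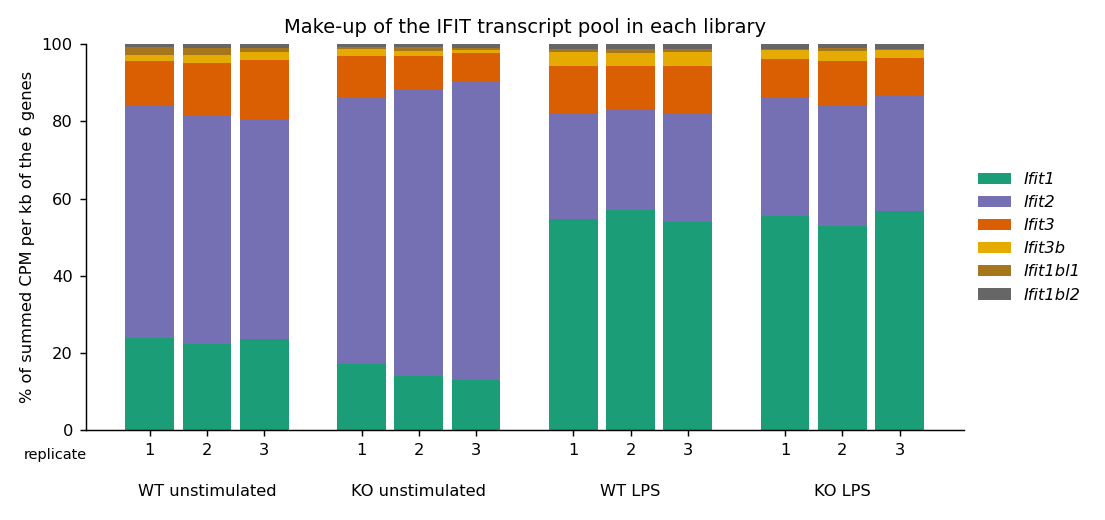
Share of each IFIT gene in the summed CPM per kb of the 6 genes, in percent, for each of the 12 libraries. Ifit2 takes the largest share in every unstimulated library and Ifit1 in every LPS-treated one. In unstimulated ACAT1 KO libraries Ifit1 takes a smaller share than in any WT library.

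In unstimulated cells, 5 of the 6 members had lower fitted levels in ACAT1 KO than in WT cells and Ifit2 did not. None passed an adjusted p under 0.05, where 1.17% of 16440 genes passed downward and 0.742% upward. At an unadjusted p under 0.05, 4 members were lower (Ifit1, Ifit3, Ifit1bl1 and Ifit1bl2), where 9.93% of genes were. The median log2 fold change of the members was -0.90, against 0.00 over all genes tested. The members were chosen with earlier results of these data known, so these values set beside all genes carry no test. In bulk RNA, fewer cells with the transcript and less transcript per cell cannot be told apart.

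Ifit1 had the smallest p. Its WT levels of 7.05 to 8.25 CPM all lay above the ACAT1 KO levels of 2.81 to 4.77 CPM, a log2 fold change of -0.94 (SE 0.215, 95% interval -1.45 to -0.43, adjusted p = 0.0807). Ifit3 was at 2.23, 3.07 and 3.46 CPM in WT and 1.99, 1.75 and 1.08 CPM in ACAT1 KO cells, which gave a log2 fold change of -0.86 (SE 0.284, adjusted p = 0.167). Here too the groups did not overlap, though WT replicate 1 was close to the highest KO library. Ifit1bl2 did not overlap either, at 0.314, 0.439 and 0.441 CPM in WT and 0.241, 0.281 and 0.258 CPM in ACAT1 KO cells, which gave a log2 fold change of -0.62 (SE 0.231, adjusted p = 0.208). Groups without overlap and with KO lower were found for 3 of 6 members and for 12.7% of all genes tested. As the members were chosen with earlier results known, this share carries no test either.

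Ifit1bl1 had the largest fitted difference on few counts, a log2 fold change of -1.27 (SE 0.465, adjusted p = 0.201), with 0.518, 0.574 and 0.288 CPM in WT and 0.145, 0.317 and 0.111 CPM in ACAT1 KO cells. Ifit3b was at 0.345, 0.540 and 0.593 CPM in WT and 0.362, 0.269 and 0.120 CPM in ACAT1 KO cells, which gave a log2 fold change of -0.98 (SE 0.425, adjusted p = 0.266). In both genes 1 KO library reached into the WT range. Ifit2 had a log2 fold change of 0.02 (SE 0.128, adjusted p = 0.957), with a 95% interval of -0.29 to 0.32. The intervals of Ifit3, Ifit3b, Ifit1bl1 and Ifit1bl2 overlapped that of Ifit2, and members were not tested against each other.

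The calls in unstimulated cells depended on the test. DESeq2 called 2 members lower, Ifit1 (adjusted p = 0.000252) and Ifit3 (adjusted p = 0.0296), and gave no adjusted p for Ifit3b, Ifit1bl1 and Ifit1bl2. A single fit of all 12 libraries called Ifit1 (adjusted p = 0.0254). The spread between libraries of a group was unequal between the states. As edgeR's common coefficient of variation over genes, it was 0.285 in unstimulated and 0.108 in LPS-treated libraries. In a fit of all 12 it was 0.185, so the single fit gave unstimulated libraries a smaller spread than their own. Of all genes, DESeq2 called 907 of 16440 lower and the single fit 758 of 16535. With edgeR on the unstimulated libraries alone it was 192 of 16440. In the fit of 9 libraries without the 3 that stood apart the log2 fold change of Ifit1 was -1.13.

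After LPS the fitted genotype differences of the members fell on both sides of 0, with 3 positive and 3 negative and a median log2 fold change of -0.06. None passed an adjusted p under 0.05, where 15.1% of 16483 genes did, and for no member did the groups separate, where 19.7% of genes separated with KO lower and 17.9% with KO higher. For Ifit1 the log2 fold change was 0.08 (SE 0.187, 95% interval -0.35 to 0.51), and for Ifit2 it was 0.28 (SE 0.191, 95% interval -0.16 to 0.72). Ifit3 was at 149.8, 227 and 248 CPM in WT and 195, 229 and 147 CPM in ACAT1 KO cells, which gave a log2 fold change of -0.13 (SE 0.206). These groups overlapped.

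Ifit1bl1 differed most after LPS, as it did at rest. It was at 13.4, 26.6 and 19.04 CPM in WT and 8.77, 14.2 and 7.22 CPM in ACAT1 KO cells, which gave a log2 fold change of -0.97 (SE 0.294, 95% interval -1.64 to -0.29, adjusted p = 0.0621). It was the 1 member lower at an unadjusted p under 0.05, where 17.2% of genes were. WT replicate 1 lay below KO replicate 2. Without WT replicate 1 the adjusted p was 0.0270, without KO replicate 2 it was 0.0424, and with the replicate number as a block it was 0.0149. The libraries left out here are those that made the groups overlap, and the numbers were not taken to pair genotypes. With any other library left out it was 0.111 to 0.177. With DESeq2 it was 0.0783 and in the single fit of 12 libraries 0.0735, and none of these passed. Ifit3b was at 51.6, 73.8 and 84.1 CPM in WT and 55.6, 62.1 and 38.2 CPM in ACAT1 KO cells, for a log2 fold change of -0.43 (SE 0.211, adjusted p = 0.210). Ifit1bl2 was at 29.4, 50.1 and 48.1 CPM in WT and 48.2, 45.0 and 35.4 CPM in ACAT1 KO cells, for a log2 fold change of 0.01. WT replicate 1 had the lowest WT level of all 6 members after LPS.

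Whether LPS acted differently by genotype was asked of the interaction, the LPS response in ACAT1 KO minus that in WT cells on the log2 scale. It was positive for all 6 members, 1.01 for Ifit1 (SE 0.301, adjusted p = 0.247), 0.73 for Ifit3 (adjusted p = 0.616), 0.64 for Ifit1bl2, 0.56 for Ifit3b, 0.30 for Ifit1bl1 and 0.25 for Ifit2. None passed, where 0.187% of genes did, 1 (Ifit1) was higher at an unadjusted p under 0.05, where 3.28% of genes were, and the 95% interval of Ifit2 ran from -0.32 to 0.83. With the line as a block, which pairs unstimulated and LPS libraries of the same number, 2 members passed. Ifit1 then had an interaction of 1.06 (SE 0.166, adjusted p = 0.0220) and Ifit3 one of 0.72 (SE 0.134, adjusted p = 0.0410), and the genes called rose from 31 to 288. That fit rests on a pairing read from the data and not stated in the labels. The interaction restates the values above, since the KO levels of Ifit1 and Ifit3 were lower than WT at rest and overlapped with WT after LPS.

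**Figure D3:**
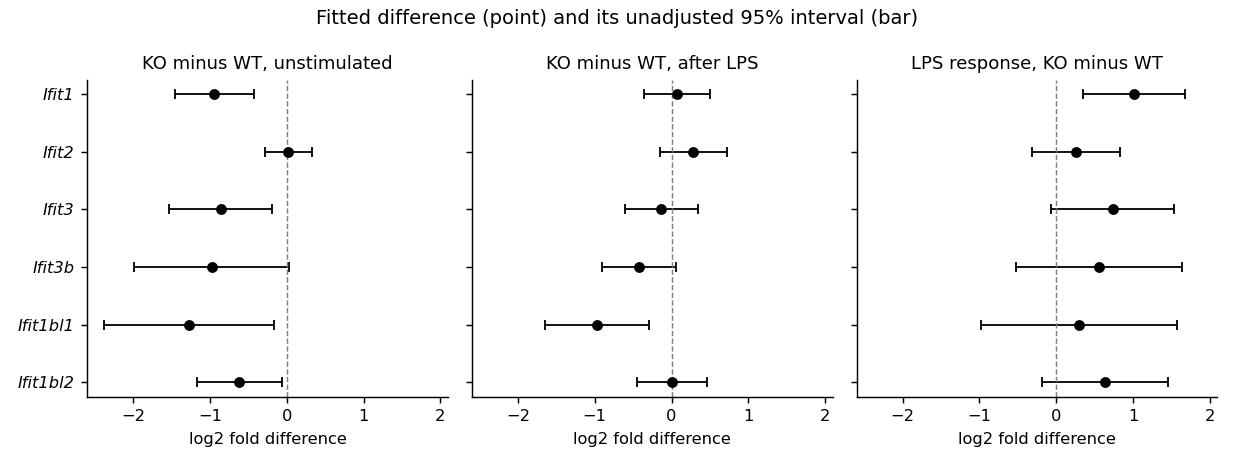
Fitted log2 fold differences of the 6 IFIT genes (points) with unadjusted 95% intervals (bars), for ACAT1 KO minus WT without stimulation, the same after LPS, and the LPS response in KO minus that in WT. Intervals of Ifit1, Ifit3, Ifit1bl1 and Ifit1bl2 lie below 0 without stimulation, after LPS that of Ifit1bl1 does, and for the LPS response that of Ifit1 lies above 0.

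The levels above can also be given as the ratio of each member to Ifit2 within a library. Ifit2 was chosen as the divisor after it was seen to be the member that was not lower in ACAT1 KO cells at rest, so the ratios restate the values above and carry no test. At rest log2(Ifit1/Ifit2) was -1.89, -1.98 and -1.82 in WT and -2.55, -2.96 and -3.13 in ACAT1 KO cells. After LPS it was 0.43, 0.58 and 0.38 in WT and 0.28, 0.18 and 0.35 in ACAT1 KO cells. The KO values thus lay below all WT values in both states, narrowly after LPS. For Ifit3 after LPS the ratio was -2.36, -2.34 and -2.35 in WT and -2.85, -2.64 and -2.82 in ACAT1 KO cells. For Ifit3b it was -3.89, -3.96 and -3.91 in WT and -4.66, -4.53 and -4.77 in ACAT1 KO cells.

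All 5 members other than Ifit2 had ratios that did not overlap, the KO values being lower, at rest and after LPS. Of all other genes, 6.93% did so at rest and 12.9% after LPS when divided by Ifit2 in the same way, and since the divisor was chosen on these values, nothing is read from these shares. By their own CPM, groups of 0 of the 6 members separated after LPS. The mean difference of log2 ratios, ACAT1 KO minus WT, ran from -1.37 (Ifit1bl1) to -0.61 (Ifit1bl2) at rest and from -1.27 (Ifit1bl1) to -0.19 (Ifit1) after LPS. The 5 ratios share the Ifit2 values, so they are not independent of each other.

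The genes nearest to the cluster were read for the same comparisons. Of the 11 protein-coding genes within 500 kb, 7 could be tested at rest and in the LPS response, and 8 in the genotype comparison after LPS. Lipa, lysosomal acid lipase, starts 23.2 kb before Ifit2 and did not pass in the LPS response of WT (0.11) or ACAT1 KO cells (0.09, both log2). Its genotype difference was 0.41 at rest (adjusted p = 0.0721) and 0.40 after LPS (adjusted p = 0.0405), higher in KO. Fas, a death receptor that starts 260 kb before Ifit2, rose with LPS by 3.76 in WT and 3.18 in ACAT1 KO cells on the log2 scale. Of the 7 tested, 2 passed higher and 2 lower with LPS in WT, and 1 higher and 2 lower in ACAT1 KO cells. Besides Fas these were Stambpl1, at 0.35 in WT, Pank1, at -1.33 in both genotypes, and Kif20b, at -0.63 in WT and -0.76 in ACAT1 KO cells (log2). No neighbour passed for genotype at rest, and Lipa was the single one that did after LPS. Ch25h, which makes 25-hydroxycholesterol and is itself interferon-inducible, was listed only after LPS, with a genotype difference of -0.51 (SE 0.555).

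**Figure D4:**
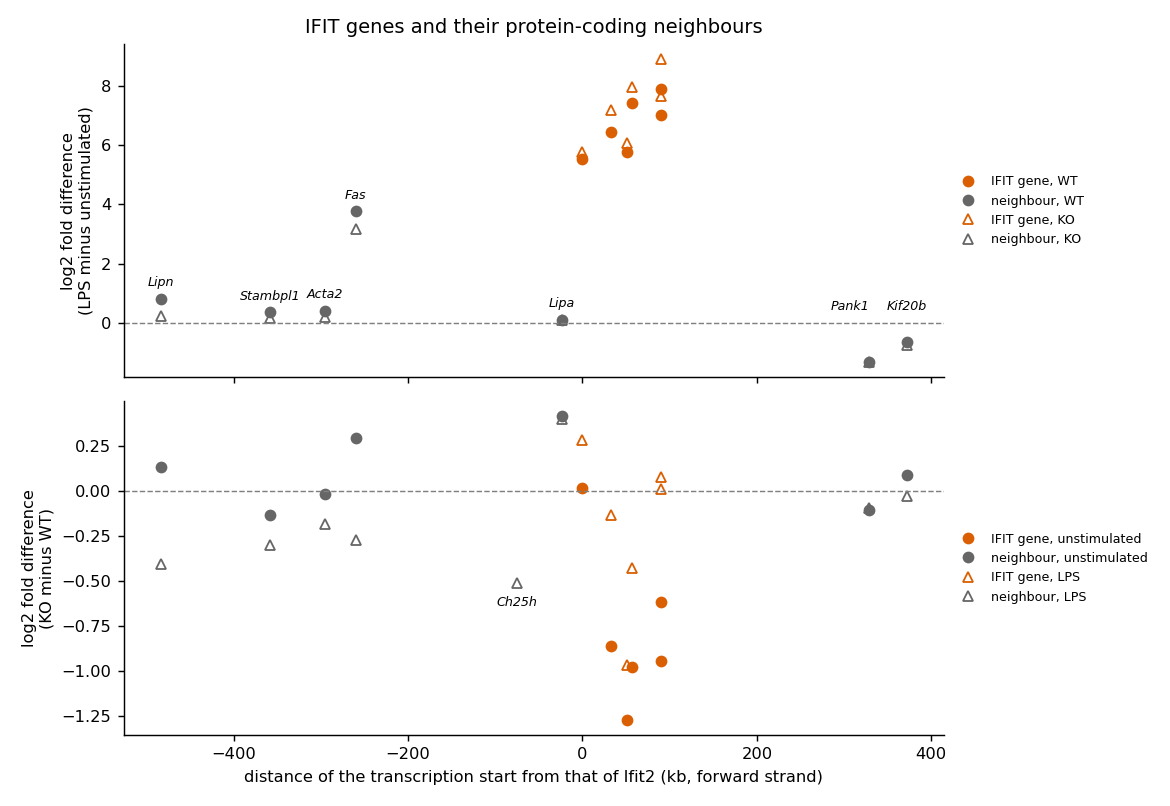
Fitted log2 fold differences of the IFIT genes (orange) and their tested protein-coding neighbours (grey) against the distance of each start from that of Ifit2, in kb. The upper panel shows the LPS response in WT (circles) and ACAT1 KO cells (triangles), where members lie between 5.53 and 8.90. The lower panel shows ACAT1 KO minus WT without stimulation (circles) and after LPS (triangles).

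Lists of 42 genes ordered by role were read next. They hold the pathway that induces IFIT genes, RNA sensors, genes of cap methylation and eIF3, feedback genes and other interferon-stimulated genes. At rest, 7 of 39 tested passed lower in ACAT1 KO cells and 0 higher, with a median log2 fold change of -0.35. That is 17.9% of the tested genes, where 1.17% of all genes passed lower. The lists were written with earlier results of these data known, so this share carries no test. After LPS 3 of 42 passed higher and 3 lower, 14.3%, where 15.1% of all genes passed. DESeq2 also called these genes. With the replicate number as a block, Ddx58 (adjusted p = 0.0512), Mx2 (0.0734) and Tbk1 (0.0605) no longer passed at rest, nor did Ifnb1 (0.0707), Ticam2 (0.0527), Tlr4 (0.0525) and the neighbour Lipa (0.0609) after LPS. At rest 0 of the 7 passed without KO replicate 1, KO replicate 3 or WT replicate 2, and 1 to 5 did without another library. After LPS Tbk1 was the 1 that still passed without KO replicate 1, KO replicate 2 or WT replicate 2. Among interferons and their receptor, Ifnb1, Ifna4 and Ifna5 were not listed at rest, and neither Ifnar1 nor Ifnar2 passed. After LPS Ifnb1 was at 21.9, 33.4 and 49.2 CPM in WT and 110.8, 84.3 and 57.5 CPM in ACAT1 KO cells, which gave a log2 fold change of 1.27 (SE 0.309, adjusted p = 0.0312). Every KO library was above every WT library for this gene. Ifna4 and Ifna5 had fitted log2 fold changes of 1.33 and 1.47 and did not pass, and Ifnar1 was lower by a log2 fold change of -0.28 (adjusted p = 0.0197).

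Of the 4 genes of ISGF3 and its kinases read here (Stat2, Irf9, Jak1 and Tyk2), 1 passed at rest. Stat2 was at 39.5, 61.9 and 50.8 CPM in WT and 22.7, 24.1 and 21.9 CPM in ACAT1 KO cells, which gave a log2 fold change of -1.15 (SE 0.156, adjusted p = 0.0344). Irf9, which brings the complex to its DNA element, had a log2 fold change of -0.35 (adjusted p = 0.168). After LPS none of the 4 passed. Among the 8 genes that induce interferon, Tbk1, the kinase of IRF3, was lower at rest (-0.35, adjusted p = 0.0442) and after LPS (-0.41, adjusted p = 0.00628). After LPS Tlr4 was also lower (-0.26) and Ticam2 higher (0.41). Irf7, itself interferon-induced, had a log2 fold change of -1.31 at rest (adjusted p = 0.0766) and 0.07 after LPS.

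Among 6 genes of RNA sensing, Ddx58 and Dhx58, which encode RIG-I and LGP2, passed lower at rest with log2 fold changes of -0.83 and -0.68. After LPS Ifih1, which encodes MDA5, was higher by 0.75 (adjusted p = 0.0240). None of the 5 genes of cap methylation and eIF3 passed in either genotype comparison. Among them is Cmtr1, which adds the ribose methyl group that caps bound by IFIT1 lack. Of 4 feedback genes Usp18, which restrains signalling at the receptor, was lower at rest by a log2 fold change of -1.76 (SE 0.201, adjusted p = 0.0215) and had one of -0.22 after LPS, which did not pass. Of 10 other interferon-stimulated genes, Cmpk2 (-1.49) and Mx2 (-1.33) passed lower at rest, all 10 had negative fitted values with a median of -1.02, and after LPS none passed.

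**Figure D5:**
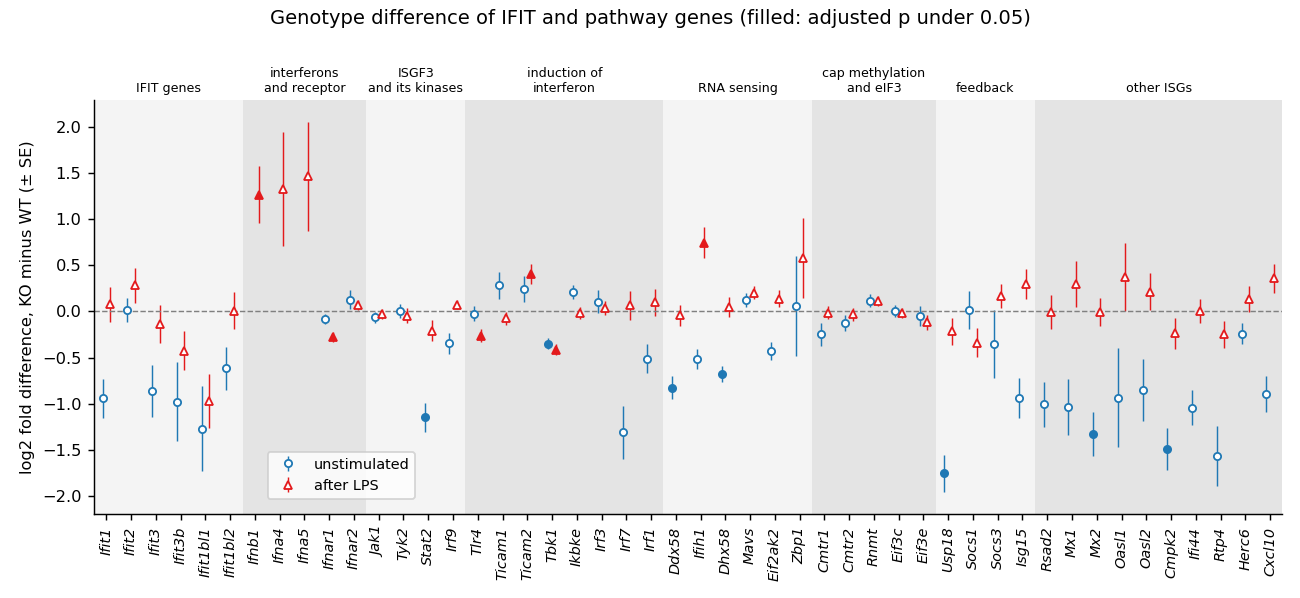
Fitted log2 fold difference, ACAT1 KO minus WT, with its standard error for the 6 IFIT genes and 42 pathway genes in 7 lists, without stimulation (blue circles) and after LPS (red triangles). Filled symbols passed an adjusted p under 0.05, 7 of 39 tested pathway genes at rest (17.9%, against 1.17% of all genes lower) and 6 of 42 after LPS (14.3%, against 15.1% of all genes), and no IFIT gene. The lists were written with earlier results of these data known, so these shares carry no test.

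Genes whose pattern was most like that of the family were found by Pearson's r with the mean centred log2 CPM of the 6 members, among genes with a mean of at least 1 CPM. Over all 12 libraries these were Rsad2, Igtp, Irgm1, Daxx and Parp14, with r from 0.9987 to 0.9993, among 11955 genes. The LPS shift common to these libraries sets such values. Over the 6 unstimulated libraries they were Rtp4, Gm6548, Irf7, Rfx3 and Inpp4b, with r from 0.990 to 0.996. Among the members themselves, r with that mean over the unstimulated libraries was 0.976 for Ifit1, 0.963 for Ifit3, 0.940 for Ifit3b, 0.855 for Ifit1bl2, 0.852 for Ifit1bl1 and 0.477 for Ifit2. Each member is part of the mean it was compared with, and the libraries of a genotype share its level.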

How the data were processed

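RNA of 12 libraries, 3 per group, was sequenced as directional paired-end libraries. Groups follow the genotype and treatment in the labels. The authors used Trimmomatic 0.33 for trimming, HISAT2 for alignment to GRCm38 and StringTie for quantification. For each state they deposited a table of raw whole-number counts by gene. The step that gave whole counts, and whether it used strand, is not given in the sources used here. The 12 columns of log2 values per library and the columns of the authors' comparisons (fold changes, a score and p-values) were not used.

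Repeated entries of a gene (59 and 57) were removed. Counts were tested with edgeR 4.0.16 in R 4.3.3 (filterByExpr, TMM, quasi-likelihood test, two-sided, Benjamini-Hochberg adjustment over all genes tested), genotype within each state and the LPS response and interaction in 1 fit of 12 libraries on the genes of both tables. The 95% intervals are unadjusted. The p-values of the genotype comparisons within a state measure the spread between lines of a genotype. Those of the LPS response and interaction treat the 12 libraries as independent and share the spread of both states, which was unequal. With the line as a block they measure the spread of the LPS response between same-numbered pairs. Level per length is CPM divided by the union of annotated exons. Sequences were aligned with Biopython 1.88, and promoter windows are RefSeq's. The tests were checked on simulated counts.

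The members and the gene lists were chosen with earlier results of these data known. Named genes are all members, the list genes of smallest p (at most 5 a list) or past the adjusted threshold, and the 5 genes of highest likeness. A few others (Ifna4, Ifna5, Cmtr1, Irf7 after LPS, Ch25h, Usp18 after LPS) are given as members of their lists. Some genes of the lists are not reported here and were left out of their counts.

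Same-numbered WT and KO libraries did not deviate together in every pair (r from -0.12 to 0.46), so numbers were not taken to pair genotypes. Unstimulated and LPS libraries of the same genotype and number did, with r from 0.32 to 0.63 over 9286 genes, which are not independent. Each number was therefore treated as a line, and the interaction is also given with the line as a block. This pairing is an inference from the same counts that the block is used to test. Alternatives were DESeq2 1.42.0, other scaling factors, no filter, other sets of libraries, and each library left out in turn. The number of lines, not depth, limits precision for all but the lowest members.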

Additional observations from a re-analysis of the deposited data

Results flagged for a closer look

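For 2 members the LPS response differed between genotypes by a test of the difference itself, when the line was a block. That pairing was read from the data and is not stated in the labels. With it, 138 of 16535 genes were called higher and 150 lower. For Ifit1 the interaction on the log2 scale was 1.06 (adjusted p = 0.0220, edgeR's quasi-likelihood test), and for Ifit3 it was 0.72 (adjusted p = 0.0410). Without the block the values were 1.01 and 0.73, and neither passed (adjusted p = 0.247 and 0.616), where 0.187% of genes did. DESeq2 without the block called Ifit1 (adjusted p = 0.0193) and not Ifit3 (adjusted p = 0.565), and called 141 of 16535 genes higher and 192 lower.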

How the results depend on the processing

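The LPS response of all 6 members kept its direction and its call in both genotypes under every alternative run. Upper-quartile scaling moved the median log2 fold change of all genes to -0.23 in the WT and -0.17 in the KO LPS response, which left the calls of the members in place, and shifted the genes called from 4850 higher and 4638 lower to 3628 and 6681 in WT, and from 4871 and 5166 to 3921 and 6560 in KO. It changed the interaction from 8 higher and 23 lower to 10 and 13.

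At rest DESeq2 called 2 members and 1721 genes, the single fit of 12 libraries 1 member and 1353 genes and the replicate block 151 genes, against 0 members and 314 genes. Leaving out 1 library gave 7 to 522 genes and no member. After LPS 1 member, Ifit1bl1, was called with the replicate block (adjusted p = 0.0149) and without WT replicate 1 or KO replicate 2. Leaving out 1 library gave 867 to 2245 genes against 2481. For the interaction the line block called 2 members and 288 genes and DESeq2 1 member and 333 genes, against 0 and 31. The fit of 9 libraries, with 1 unstimulated WT library assumed to vary like the other groups, called 52 genes at rest and 2 for the interaction, which says nothing on stability. Leaving out 1 library gave 2 to 41 genes and no member.

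Values near 0 changed sign. For Ifit2 at rest these were -0.0011 with upper-quartile factors, -0.16 in the fit of 9 libraries, and a range of -0.12 to 0.12 with 1 library left out. After LPS, leaving out 1 library gave -0.12 to 0.21 for Ifit1, -0.32 to 0.031 for Ifit3 and -0.20 to 0.15 for Ifit1bl2, whose value in the fit of 12 libraries was -0.0097. The interaction of Ifit1bl1 ranged from -0.038 to 0.78. Without division by length, Ifit1 made up 51.1% of the family in LPS-treated WT cells against 55.3%. The cause of these differences was not tested. The replicate block changed no other call of a member.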
